A study of Mus musculus with 17 samples.

Results

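The genes described here set whether a myoblast passes from G1 into S phase: the D cyclins, their kinases CDK4 and CDK6, the CDK inhibitors and the retinoblastoma gene. They were taken as the rows of the deposited raw count table whose gene symbol was Ccnd1, Ccnd2, Ccnd3, Cdk4, Cdk6, Cdkn1a, Cdkn1b, Cdkn1c, Cdkn2c or Rb1. Of these 10 symbols, 9 had a row among the table's 15062 genes. Cdkn1c was not among its rows and is not analysed here. D cyclins bind CDK4 or CDK6, and the active kinase phosphorylates the RB protein, which then releases E2F factors that drive S phase genes. The INK4 protein p18 (Cdkn2c) binds CDK4 and CDK6 themselves, while p21 (Cdkn1a) and p27 (Cdkn1b) bind cyclin-CDK complexes. In skeletal muscle, myoblasts leave the cell cycle as they differentiate, with p21 and RB known to hold the cycle shut in the fibres and cyclin D3 known to be induced.

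RNA was sequenced from C2C12, an established mouse myoblast line that proliferates in serum-rich medium and can form muscle fibres when serum is withdrawn. The series concerns fusions of the SRF gene from soft tissue tumours with muscle-like features. SRF, serum response factor, is a transcription factor that binds the CArG box and acts on both growth and muscle genes. Its partners here were FOXO1, a forkhead transcription factor, ICA1L, RELA, a subunit of NF-kappaB, and PDGFRB, a receptor tyrosine kinase. The 6 groups were cells with pMSCV, a retroviral expression vector for which the labels name no insert, cells with SRF, and cells with SRF-RELA, SRF-FOXO1, SRF-PDGFRB or SRF-ICA1L. Each group had 3 libraries, apart from SRF-PDGFRB with 2, which makes 17. All were described as grown in medium with 10% fetal bovine serum, so no group was labelled as switched to differentiation medium. The labels do not say whether libraries of a group came from separate cultures or whether a line was 1 clone, so p-values measure the spread between these libraries, which may be technical.

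Libraries held 20901442 to 23543734 counted reads, and no member had fewer than 749 reads in any library. Counting error was therefore in most cases small beside the spread between libraries. Of the myoblast markers that fit the label, 8 of 8 had a row, with a summed level of 1542 to 1859 CPM (the count scaled to a common library size) in pMSCV, 779 to 1388 in SRF, 511 to 1170 in SRF-ICA1L, 428 to 794 in SRF-RELA and 307 to 356 in SRF-FOXO1. The only endothelial marker with a row reached at most 2.72 CPM, the only epithelial one at most 0.553 and the 2 immune ones together at most 7.62, and the defining markers Pecam1, Epcam and Ptprc were not among the table's rows. The 2 adipocyte markers with a row summed to 15.8 to 31.9 CPM and the 2 osteoblast ones to 60.6 to 108 CPM. The SRF-PDGFRB libraries stood apart from each other. Library 1 held 42.3 CPM of 23 muscle differentiation genes and 248 CPM of myoblast markers, and library 2 held 1562 and 2102 CPM. Values that rest on that group are therefore given by library. In bulk RNA, fewer cells of a type and less RNA per cell cannot be told apart.

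Promoter sequence was looked at for the members whose levels varied together with the replicate number or between lines below. The RefSeq promoter set for GRCm38.p6 gives 250 bases before to 50 after each listed start and matched 6 of the 10 symbols with 9 entries. The entries of Cdkn1a, which had the strongest replicate pattern, and of Cdk6, the member with the largest line difference, are printed 5′ to 3′ on the gene's strand. The windows are Cdkn1a entry 1 at chr17:29090729-29091028 (+), Cdkn1a entry 2 at chr17:29093519-29093818 (+) and Cdk6 at chr5:3343643-3343942 (+). The windows of Cdk6 and of Cdkn1a entry 2 lie inside the gene spans given below, so their starts are not the annotated gene starts. Capitals mark matches on either strand to the motifs that were searched.
Cdkn1a entry 1: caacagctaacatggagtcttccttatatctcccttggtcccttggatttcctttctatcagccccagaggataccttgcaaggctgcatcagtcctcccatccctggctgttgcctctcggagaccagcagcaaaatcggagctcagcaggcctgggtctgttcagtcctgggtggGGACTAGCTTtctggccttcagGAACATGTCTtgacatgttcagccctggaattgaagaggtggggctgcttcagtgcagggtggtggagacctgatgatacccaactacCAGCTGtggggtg
Cdkn1a entry 2: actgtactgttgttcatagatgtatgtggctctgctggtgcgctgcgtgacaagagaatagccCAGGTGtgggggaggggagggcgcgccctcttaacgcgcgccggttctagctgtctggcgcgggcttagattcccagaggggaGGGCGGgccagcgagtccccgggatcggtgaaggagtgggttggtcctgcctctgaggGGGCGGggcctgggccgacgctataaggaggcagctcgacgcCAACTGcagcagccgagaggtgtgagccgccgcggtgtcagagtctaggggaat
Cdk6: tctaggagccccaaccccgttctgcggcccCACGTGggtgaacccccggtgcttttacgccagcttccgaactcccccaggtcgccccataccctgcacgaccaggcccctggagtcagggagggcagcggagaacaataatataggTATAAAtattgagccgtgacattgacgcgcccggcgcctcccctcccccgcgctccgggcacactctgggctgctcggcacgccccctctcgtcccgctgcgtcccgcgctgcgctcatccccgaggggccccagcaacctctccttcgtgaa

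The searched motifs were the E-box CANNTG, the FOXO motif GTAAACA, the CArG box of SRF and the GC box GGGCGG. The E2F motifs TTTGGCGC and TTTCGCGC, the TATA box TATAAA and the p53 half-site were searched too. CANNTG is a broad pattern, of which MyoD-type factors bind only some forms. The p53 half-site was added after the Cdkn1a sequence had been seen. Entry 1 of Cdkn1a held p53 half-sites starting at -73 and -51 and an E-box at 37. All positions are counted from the listed start of the entry. Among all 32851 promoter windows of 300 bases, 8.36% held a p53 half-site and 72.3% an E-box, so the E-box is common. Entry 2 of Cdkn1a held E-boxes at -187 and -4 and GC boxes at -104 and -46. A GC box occurred in 35.7% of windows. The Cdk6 window held an E-box, with the letters CACGTG, at -220 and a TATA box at -103, and 13.6% of windows held a TATA box. Among the 9 entries, only Ccnd3 entry 1 held a FOXO motif, at -243, against 3.65% of all windows. These letters were not found for the CArG box (1.63% of windows) or the E2F motifs (0.813%) in any of the 9 entries. A match is a description of these letters and not evidence of binding.

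Compared per kilobase of merged exons (GENCODE M21, GRCm38), Cdk4 was the most abundant member, with a median of 126.8 CPM per kilobase over the 17 libraries. Ccnd1 followed at 86.2 and Cdkn1a at 62.0. A middle set held Cdkn2c at 17.3, Ccnd2 at 14.8 and Cdkn1b at 14.5, and the lowest were Rb1 at 8.37, Ccnd3 at 7.89 and Cdk6 at 6.07. Cdk4 RNA exceeded Cdk6 RNA in every library, by a factor of 10.4 in SRF-PDGFRB library 2 to 40.6 in SRF-RELA library 1. The 3 D cyclins summed to 49.6 CPM per kilobase in pMSCV library 2 and to 149.8 in pMSCV library 3, the lowest and the highest of all. Ccnd1 made up most of that sum in every library, from 57.9% in pMSCV library 2 to 87.9% in SRF-FOXO1 library 3. Ccnd2 contributed 4.78% to 23.3% and Ccnd3 5.74% to 20.5%. Among inhibitors, Cdkn1a exceeded Cdkn1b by 1.52 times in SRF-FOXO1 library 1 and by 13.9 times in SRF-FOXO1 library 2, the whole range seen.

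**Figure D1:**
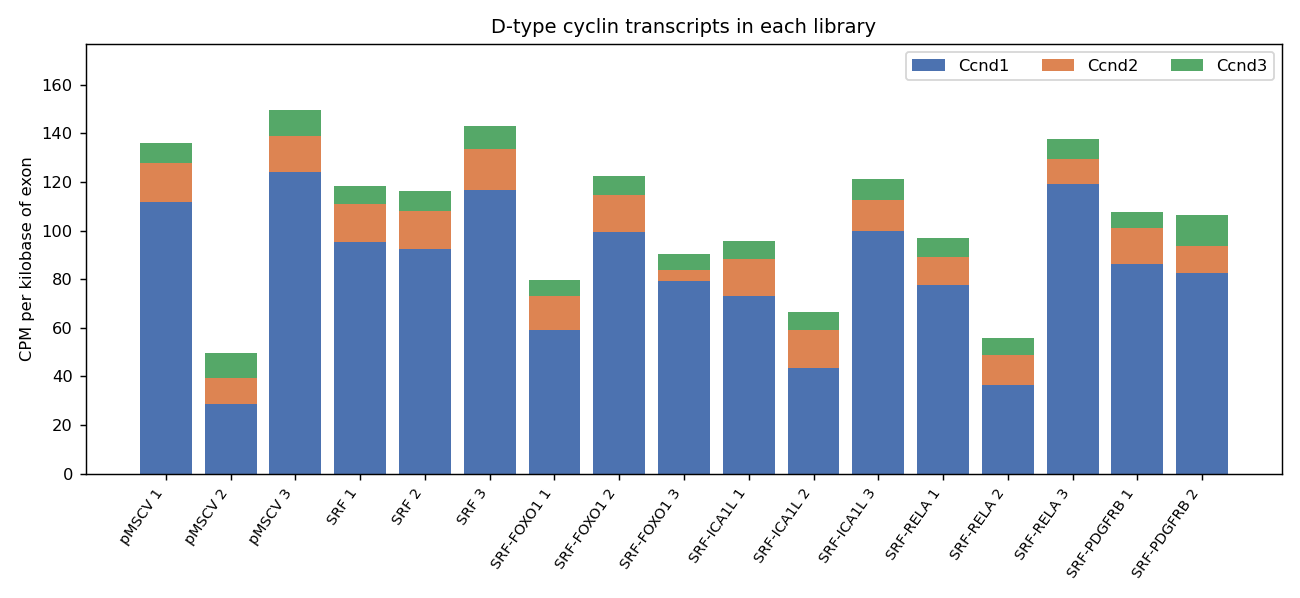
Levels of Ccnd1, Ccnd2 and Ccnd3 RNA in CPM per kilobase of merged exons, stacked for each of the 17 libraries in group order. Ccnd1 forms the largest segment of every bar, and the shortest bar, pMSCV library 2, reaches 49.6 CPM per kilobase.

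Cyclin D1 (Ccnd1; chr7:144929931-144939925, GRCm38, minus strand) couples growth factor signals to CDK4 and CDK6. Its level was 526, 135 and 584 CPM in pMSCV libraries 1, 2 and 3, 448, 435 and 549 in SRF, 279, 468 and 373 in SRF-FOXO1, 365, 172 and 561 in SRF-RELA, 345, 204 and 469 in SRF-ICA1L and 406 and 388 in SRF-PDGFRB libraries 1 and 2. Library 2 was far below its neighbours in pMSCV, SRF-ICA1L and SRF-RELA, but not in SRF-FOXO1, where it was the highest. The spread within pMSCV (415 ± 244 CPM, SD, n = 3) covered the means of every other group.

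Cyclin D2 (Ccnd2; chr6:127125162-127152193, minus strand) stood at 152, 101 and 141 CPM in pMSCV, 149, 146 and 158 in SRF, 129, 143 and 40.6 in SRF-FOXO1, 110.1, 114 and 98.0 in SRF-RELA, 140.4, 146 and 120.3 in SRF-ICA1L and 139.5 and 105 in SRF-PDGFRB. The lowest value, in SRF-FOXO1 library 3, was a single library: the other two of that group lay among the controls. SRF held the highest mean, 151 ± 5.99 CPM (SD, n = 3), and each of its libraries was above each library of the 4 fusion groups. For SRF-ICA1L this was a near tie, with library 2 of SRF at 146.4 CPM and library 2 of SRF-ICA1L at 146.

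Cyclin D3 (Ccnd3; chr17:47505051-47599691, plus strand), the D cyclin known to rise in differentiating muscle, had the narrowest range of the D cyclins, a highest-to-lowest ratio of 1.96. Its level was 71.9, 89.05 and 94.8 CPM in pMSCV, 63.5, 72.4 and 85.6 in SRF, 57.1, 68.3 and 57.9 in SRF-FOXO1, 69.5, 61.7 and 69.2 in SRF-RELA, 65.2, 66.4 and 78.4 in SRF-ICA1L and 57.95 and 112 in SRF-PDGFRB. Every SRF-FOXO1 and every SRF-RELA library lay below every pMSCV library. The highest value of all was SRF-PDGFRB library 2, the library rich in muscle RNA.

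Cdk4 (chr10:127063534-127067920, plus strand), the main kinase partner by RNA level, varied least, with a highest-to-lowest ratio of 1.84. It stood at 494, 387 and 467 CPM in pMSCV, 504, 491.5 and 461 in SRF, 412, 354 and 280.1 in SRF-FOXO1, 515, 357 and 394 in SRF-RELA, 489, 396 and 426 in SRF-ICA1L and 353 and 387 in SRF-PDGFRB. SRF-FOXO1 had the lowest mean, 348 ± 66.1 CPM (SD, n = 3), and all of its libraries lay below all SRF libraries.

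Cdk6 (chr5:3341485-3531008, plus strand), the other kinase, varied 3.69-fold. It measured 169, 84.95 and 163 CPM in pMSCV, 106.5, 103 and 153.5 in SRF, 53.7, 48.4 and 69.6 in SRF-FOXO1, 54.65, 45.7 and 125 in SRF-RELA, 70.25, 57.5 and 124 in SRF-ICA1L and 47.9 and 160.4 in SRF-PDGFRB. SRF-FOXO1 was low throughout, below every pMSCV and every SRF library, while in SRF-ICA1L and SRF-RELA library 3 was high and the other two low.

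Cdkn1a (chr17:29090976-29100727, plus strand) encodes p21, which p53 and MyoD are known to induce. It stood at 283, 357 and 220.2 CPM in pMSCV, 209, 322.5 and 178 in SRF, 155, 506 and 185 in SRF-FOXO1, 202, 374 and 150.5 in SRF-RELA, 216, 389.6 and 165 in SRF-ICA1L and 469.9 and 340.2 in SRF-PDGFRB. Library 2 was the highest of its group in 5 of 5 groups with 3 libraries. The group means therefore overlapped widely, and SRF-FOXO1 alone ran from the second lowest value to the highest.

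Cdkn1b (chr6:134920401-134925513, plus strand) encodes p27, whose gene FOXO factors are known to activate. Its level was 61.05, 86.2 and 65.85 CPM in pMSCV, 59.1, 53.5 and 67.6 in SRF, 131, 46.7 and 107 in SRF-FOXO1, 58.5, 67.4 and 72.6 in SRF-RELA, 59.2, 50.45 and 84.1 in SRF-ICA1L and 47.4 and 89.0 in SRF-PDGFRB. SRF-FOXO1 libraries 1 and 3 were the highest of all 17 and library 2 was the lowest of all 17.

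Cdkn2c (chr4:109660876-109667189, minus strand), which encodes p18, measured 45.5, 37.1 and 45.85 CPM in pMSCV, 47.6, 46.5 and 42.9 in SRF, 63.6, 42.4 and 84.3 in SRF-FOXO1, 59.6, 41.6 and 60.3 in SRF-RELA, 47.0, 42.9 and 50.45 in SRF-ICA1L and 44.8 and 53.3 in SRF-PDGFRB. As with Cdkn1b, SRF-FOXO1 libraries 1 and 3 were the highest of all and library 2 lay among the controls.

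Rb1 (chr14:73183673-73325822, minus strand) stood at 45.9, 52.8 and 35.0 CPM in pMSCV, 38.7, 50.3 and 46.2 in SRF, 61.85, 63.4 and 62.65 in SRF-FOXO1, 47.0, 73.3 and 47.3 in SRF-RELA, 41.4, 61.5 and 46.05 in SRF-ICA1L and 67.9 and 78.1 in SRF-PDGFRB. The SRF-FOXO1 and SRF-PDGFRB libraries all lay above all pMSCV and SRF libraries. SRF-FOXO1 was also the tightest group, at 62.6 ± 0.796 CPM (SD, n = 3). Counting error alone would usually give a wider spread at these read numbers, so no meaning is attached to it. As for Cdkn1a, library 2 was the highest of its group in 5 of 5 groups with 3 libraries.

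**Figure D2:**
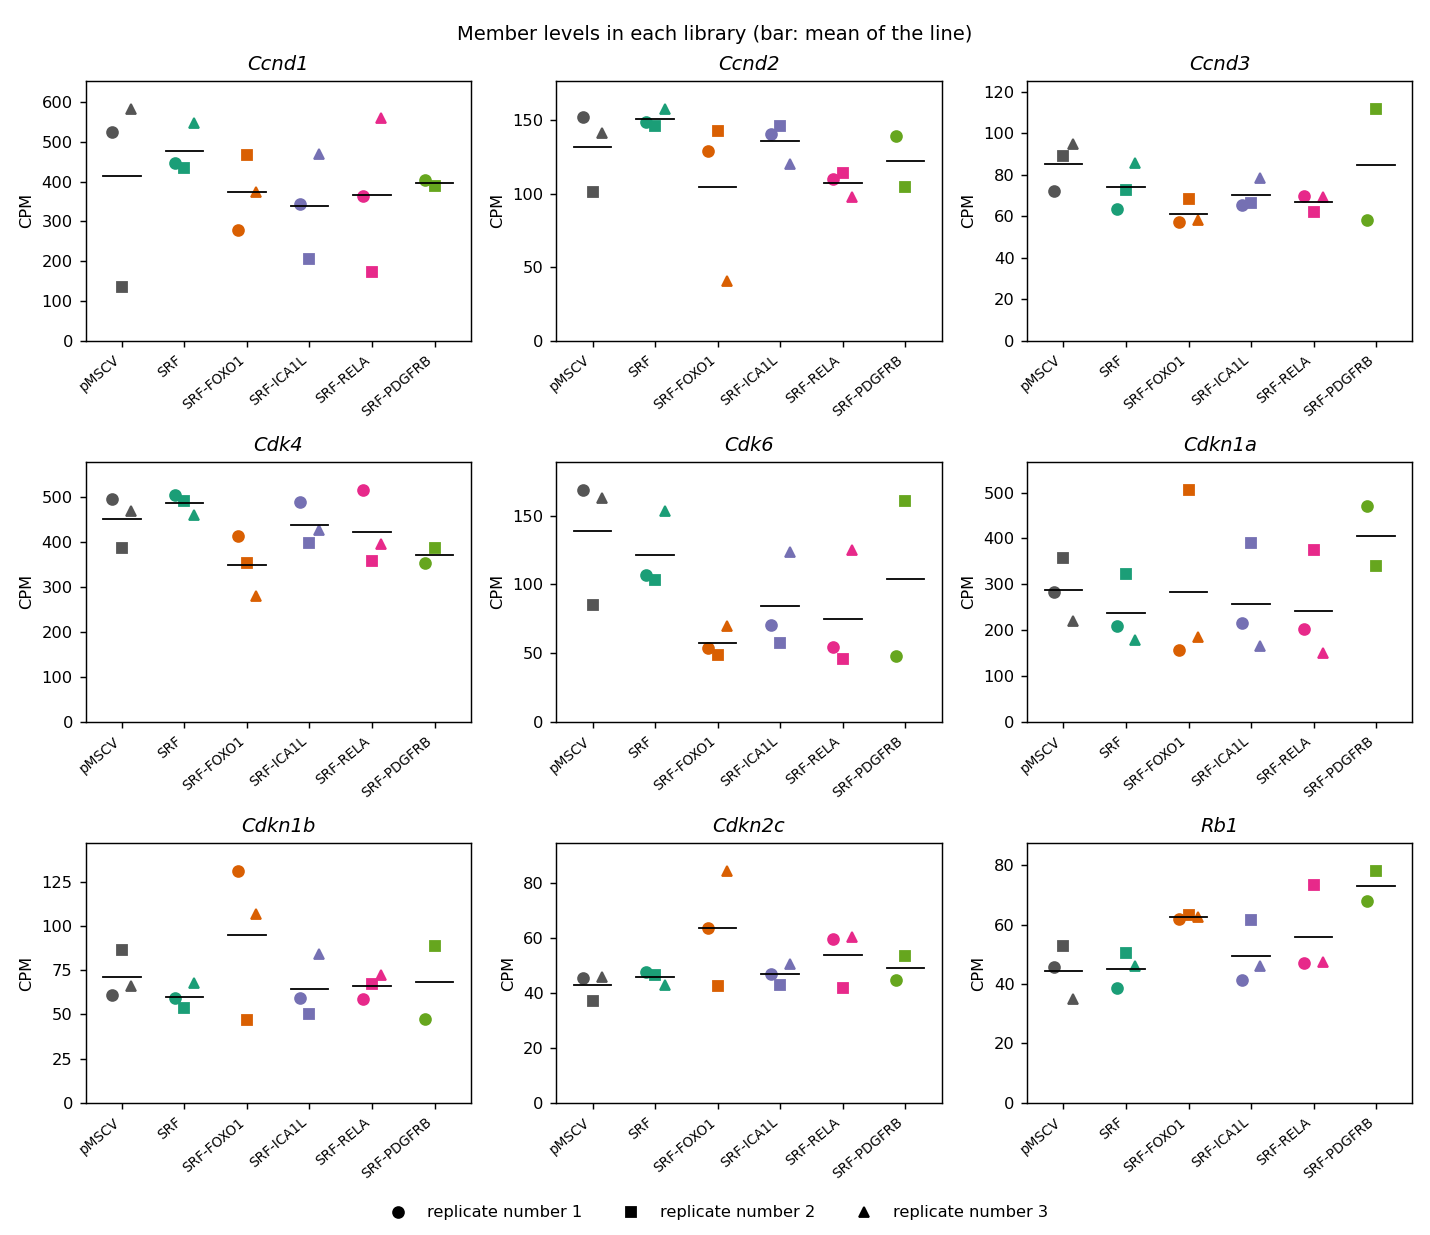
Level of each of the 9 genes in CPM in every library, 1 panel a gene, with groups on the horizontal axis, the marker shape giving the replicate number and a bar at each group mean. Cdkn1a shows library 2 on top in all 5 groups with 3 libraries, and Rb1 in SRF-PDGFRB and SRF-FOXO1 sits above all pMSCV and SRF points.

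When groups were ranked by mean, neighbours in the order overlapped for every gene, with 2 exceptions. The Ccnd2 libraries of SRF-ICA1L lay below those of SRF, with the near tie given above, and the Rb1 libraries of SRF-FOXO1 wholly below those of SRF-PDGFRB. For 7 of the 9 genes an exon of another gene overlaps on the opposite strand, among them LTO1 with 1100 bases for Ccnd1 and Tspan31 with 641 bases for Cdk4, and none does for Cdkn1b and Cdkn2c. The library kit marks strand, but whether counting used it is not given in the sources used here, so reads of such partners cannot be told apart from those of the member.

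Whether the vector, SRF or a fusion set the level of these genes was tested in 9 comparisons with edgeR's quasi-likelihood test, all 17 libraries in 1 fit, with Benjamini-Hochberg adjustment over all genes and a call at an adjusted p under 0.05. No member was called in any of them, nor by DESeq2, which called 9.07% of genes in SRF-FOXO1 against pMSCV. The calls over all genes were few as well: against pMSCV, 0.00664% of genes were called in SRF, 0.71% in SRF-FOXO1, 0.0199% in SRF-PDGFRB and 0% in either of SRF-ICA1L and SRF-RELA. Against SRF they were 0.00664% in SRF-FOXO1, the same 0.00664% in SRF-RELA, 0.0531% in SRF-PDGFRB and 0% in SRF-ICA1L. A count of 0 of 9 thus lies near the background, and it does not show that the levels were equal. A single test for any difference among the 6 groups called 0 members, against 0.0797% of genes, and 1 member, Rb1, had an unadjusted p under 0.05 (edgeR adjusted p = 0.544), against 8.68% of genes.

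Between SRF-FOXO1 and pMSCV, 4 of 9 members had an unadjusted p under 0.05, against 20.9% of all genes. Cdk6 had a log2 fold change of -1.28 (SE 0.47, edgeR adjusted p = 0.148) and Ccnd3 one of -0.48 (SE 0.21, edgeR adjusted p = 0.204). Cdkn2c had a log2 fold change of 0.57 (SE 0.21, edgeR adjusted p = 0.159) and Rb1 one of 0.49 (SE 0.21, edgeR adjusted p = 0.199). So the kinase and the cyclin had lower values and the 2 brakes higher ones, none past the adjusted threshold. The Cdkn2c difference rested on library 3 of SRF-FOXO1, without which it was 0.31. The other 5 members lay between -0.37 and 0.42. Rb1 higher and Ccnd3 and Cdk6 lower had groups that did not overlap, 3 of 9 members against 23% of genes.

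Against SRF, SRF-FOXO1 again had 4 members at an unadjusted p under 0.05, against 19.2% of genes. These were Cdk6 at -1.08 (log2 fold change, SE 0.47, edgeR adjusted p = 0.238), Cdk4 at -0.48 (SE 0.17, edgeR adjusted p = 0.205), Cdkn2c at 0.47 (SE 0.21, edgeR adjusted p = 0.250) and Rb1 at 0.47 (SE 0.21, edgeR adjusted p = 0.242). Both comparisons share the SRF-FOXO1 libraries. Without library 3 of SRF-FOXO1 the Cdkn2c value was 0.21. Replicate numbers paired the SRF and SRF-FOXO1 libraries weakly, with correlations of deviations from the group means of 0.22 to 0.33. They did not pair SRF-FOXO1 with pMSCV, SRF-ICA1L or SRF-RELA, where the lowest correlations were -0.195, 0.071 and -0.013. With the 6 libraries of SRF and SRF-FOXO1 alone and the number as a block, Cdk6 fell by 1.06 on the log2 scale (SE 0.12, edgeR adjusted p = 0.0394). That was 1 of 9 members against 1.57% of genes. Without the block Cdk6 was called in those 6 libraries as well (edgeR adjusted p = 0.0460), but the share of all genes called there is not available. The groups did not overlap for 4 of 9 members, Rb1 higher and Ccnd2, Cdk4 and Cdk6 lower, against 35.4% of genes.

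SRF-PDGFRB had 1 member at an unadjusted p under 0.05 in each comparison, Rb1. Its log2 fold change was 0.71 against pMSCV (SE 0.23, edgeR adjusted p = 0.515), beside 7.7% of genes at that level, and 0.70 against SRF (SE 0.23, edgeR adjusted p = 0.910), beside 5.03% of genes. Rb1 was high in both SRF-PDGFRB libraries, at 67.9 and 78.1 CPM, although their muscle RNA differed as given above. Groups did not overlap for 2 of 9 members against pMSCV (15.9% of genes), Rb1 higher and Cdk4 lower. Against SRF they did not overlap for 5 of 9 (25.7% of genes), Cdkn1a and Rb1 higher and Ccnd1, Ccnd2 and Cdk4 lower.

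In the remaining comparisons no member reached an unadjusted p under 0.05. SRF against pMSCV had members between -0.28 and 0.20 on the log2 scale, beside 3.34% of genes at that level. SRF-ICA1L ranged from -0.73 to 0.16 against pMSCV (6.23% of genes) and from -0.53 to 0.14 against SRF (1.56%). SRF-RELA ranged from -0.69 to 0.31 against SRF (3.21%), and 8 of its members from -0.35 to 0.33 against pMSCV (8.05%), the exception being Cdk6. Groups did not overlap for 0 of 9 members in SRF against pMSCV (9.16% of genes), 0 of 9 in SRF-ICA1L against pMSCV (10.2%) and 1 of 9, Ccnd3 lower, in SRF-RELA against pMSCV (11.1%). Against SRF, Ccnd2 lower was the 1 such member in SRF-ICA1L (7.58%), by the near tie given above, and in SRF-RELA (10.9%).

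Cdk6 in SRF-RELA was the 1 member whose call depended on pairing by replicate number across the 12 libraries of SRF-RELA, SRF-ICA1L, SRF and pMSCV. The edgeR adjusted p was 0.673 without a block. In those 12 libraries, with the number as a block, Cdk6 fell by 0.96 on the log2 scale against pMSCV (SE 0.22, edgeR adjusted p = 0.0265), 1 of 9 members against 6.48% of genes. With only the pMSCV and SRF-RELA libraries and the block it was not called (edgeR adjusted p = 0.0865), and the unblocked value ran from -1.47 without SRF-RELA library 3 to -0.63 without SRF-RELA library 2. Within each number SRF-RELA was lower than pMSCV in 3 of 3 pairs. The blocked fit of 12 libraries gave Cdk6 at -0.76 in SRF-ICA1L (SE 0.21, edgeR adjusted p = 0.0876), not called, with 0 of 9 members against 2.99% of genes. Whether SRF-RELA and SRF-ICA1L differ was not tested.

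**Figure D3:**
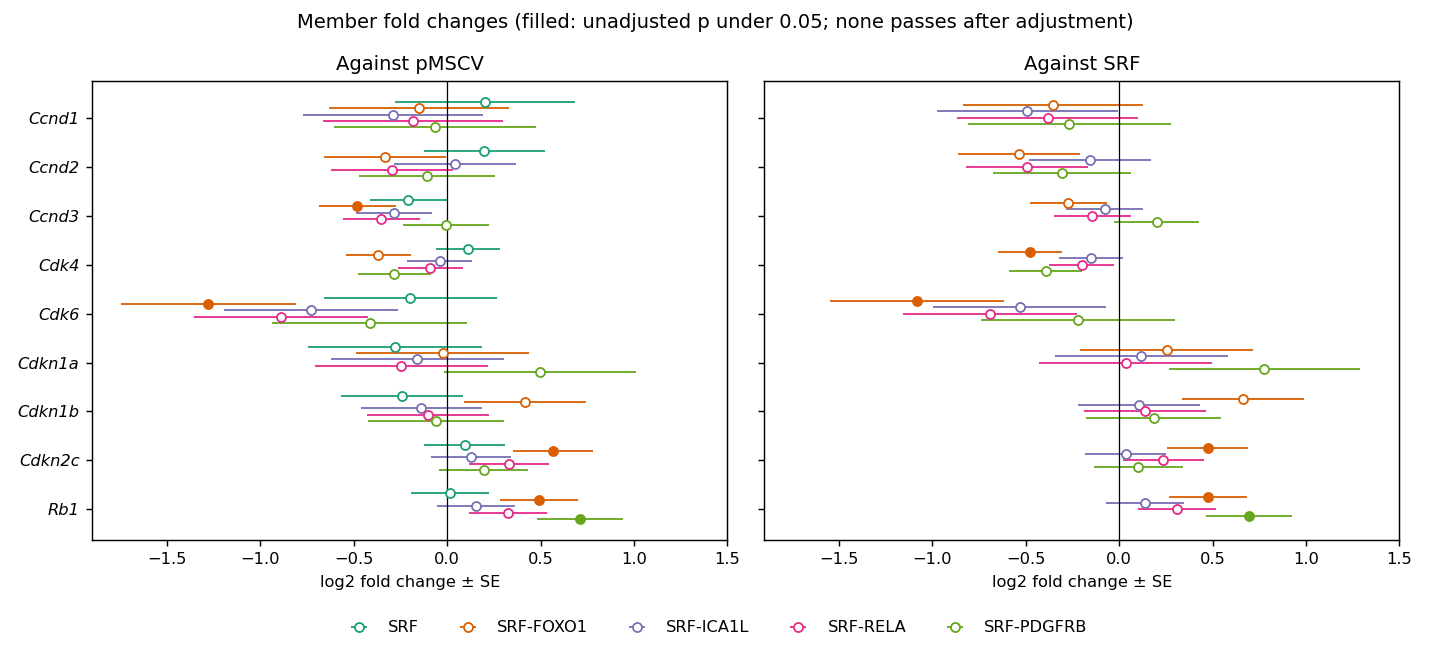
Log2 fold change with its SE of each of the 9 genes in each line, against pMSCV on the left and against SRF on the right, from the fit of all 17 libraries. Cdk6 in SRF-FOXO1 lies farthest from 0, at -1.28 against pMSCV, and filled points have an unadjusted p under 0.05.

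The pathway around these genes was described with 3 lists: 29 other regulators of G1 and of the RB-E2F axis, 24 S phase and mitosis genes and 23 muscle differentiation genes. No gene of any list was called in the 9 comparisons with edgeR's quasi-likelihood test and no block. At an unadjusted p under 0.05, the muscle genes numbered 6 in SRF, 15 in SRF-FOXO1, 14 in SRF-RELA and 6 in SRF-ICA1L against pMSCV. The shares of all genes were 3.34%, 20.9%, 8.05% and 6.23%. DESeq2 called 1, 7, 1 and 1 of the 23, beside 0.0266%, 9.07%, 0.712% and 0.324% of all genes. The other G1 regulators numbered 4 of 29 in SRF-FOXO1 against pMSCV at that level, beside 20.9% of all genes, and DESeq2 called 4, beside 9.07%. The S phase and mitosis genes numbered 0 in the 5 comparisons with pMSCV by either measure. All genes there had 3.34% to 20.9% at that level and 0.0266% to 9.07% called by DESeq2. Against SRF, the most at that level were 9 muscle genes in SRF-PDGFRB, beside 5.03% of all genes. DESeq2 called 1 gene of the lists against SRF, a G1 regulator in SRF-FOXO1, beside 4.3% of all genes. Library 1 of SRF-PDGFRB, at 42.3 CPM of muscle genes, lay below every SRF library (210.1 to 439 CPM), and library 2 lay above them at 1562 CPM. Muscle genes nevertheless had low values: the median log2 fold change against pMSCV was -2.06 for SRF with 23 of 23 below 0, -2.52 for SRF-FOXO1 with 23 of 23, -2.17 for SRF-RELA with 21 of 23 and -1.99 for SRF-ICA1L with 23 of 23, while the medians of all genes lay between -0.0161 and 0.0008. S phase and mitosis genes had medians of 0.37 for SRF, -0.22 for SRF-FOXO1, 0.17 for SRF-RELA and 0.13 for SRF-ICA1L. Their values in SRF were above pMSCV for 24 of 24 genes. The members' medians lay between -0.18 and 0.02 in the same 4 comparisons.

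With the block for number in those 12 libraries, 13 of 23 muscle genes fell in SRF-RELA against pMSCV, beside 6.48% of all genes. Myog, the transcription factor that starts terminal differentiation, fell by 3.04 on the log2 scale (SE 0.48, edgeR adjusted p = 0.00687), and Mef2c, its partner factor, by 2.20 (SE 0.30, edgeR adjusted p = 0.00392). In SRF-ICA1L 9 of 23 fell, beside 2.99% of all genes, Myog by 2.44 (SE 0.46, edgeR adjusted p = 0.0221) and Mef2c by 2.01 (SE 0.30, edgeR adjusted p = 0.0110). With the block and only the 2 groups compared, 8 muscle genes were called in SRF-RELA, beside 2.98% of all genes, and 4 in SRF-ICA1L, beside 0.136%. No muscle gene was called in SRF against pMSCV in either blocked fit. Of all genes, 0.0137% were called there with 12 libraries and 0% with only the 2 groups. Without a block the median of the muscle genes in SRF was -2.06, so the lack of calls does not show equal levels. Of the 29 other G1 regulators, 2 were called in SRF-RELA: Rbl2, the RB relative p130 of resting cells, rose by 0.60 (SE 0.15, edgeR adjusted p = 0.0440) and E2f2, an activating E2F, fell by 0.56 (SE 0.12, edgeR adjusted p = 0.0245). Neither was called with the block and only the pMSCV and SRF-RELA libraries. In the fit of 12 libraries Cdkn1a, Cdkn1b, Cdkn2c and Rb1 were not called in SRF-RELA or SRF-ICA1L.

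The regulators named by rule outside the members had no call without a block. Against pMSCV in SRF-FOXO1, Ccne1, cyclin E1, was at 0.02 on the log2 scale, E2f1 at 0.15, Rbl1, the RB relative p107, at 0.40, Myc at -0.40, the proliferation antigen Mki67 at 0.44 and Ccna2, cyclin A2, at -0.04, none called. Myod1, the myoblast master factor, was at -2.88 (SE 0.92, edgeR adjusted p = 0.106), Myog at -2.52 (edgeR adjusted p = 0.283) and the muscle creatine kinase Ckm at -1.05 (edgeR adjusted p = 0.661). Cdkn2a was not among the table's rows.

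Libraries of the same number in different groups varied together, with correlations of their deviations from the group means between 0.392 and 0.789 in 6 of 6 pairs of groups among the SRF-RELA, SRF-ICA1L, SRF and pMSCV groups. What the number stands for, such as a culture, day or batch, is not given in the sources used here. Differences among numbers were therefore tested over these 12 libraries with a term for group. Of the 9 members 4 were called (edgeR's quasi-likelihood test), Cdkn1a, Cdk6, Ccnd1 and Rb1, which is close to the 52% of all genes called. DESeq2 called 5 members, Cdk4 in addition, which is again close to its share of 54.1% of all genes. Over these libraries the median share of variance over all genes was 49.6% by number and 19.5% by line. With the SRF-FOXO1 libraries added it was 30.4% and 28.5%. These are raw shares, not corrected for the number of levels. There are more lines than numbers, which by itself gives the line a larger share, so a larger share by line does not rank line above number. For Cdkn1a the number carried 86% and the line 7.69%, for Ccnd1 66.9% and 11%, and for Rb1 59.5% and 20.8%. Ccnd2 had the larger raw share by line, with 5.59% by number and 58.4% by line, as did Ccnd3 with 34.8% and 45.3%. Cdkn2c had 35.3% by number and 35.5% by line. With the SRF-FOXO1 libraries added, the raw shares by line and by number were 43.7% and 34.9% for Rb1. They were 54.1% and 34.9% for Cdk6 and 48.6% and 31.1% for Cdk4, while Cdkn1a kept 81.5% by number. For Ccnd2 the line then carried 30.5%, near the 28.5% of all genes, and the number 15%.

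Cdkn1a rose in number 2 by 0.68 on the log2 scale against number 1 (SE 0.12, edgeR adjusted p = 0.00358) and by 1.02 against number 3 (SE 0.12, edgeR adjusted p = 0.000300). Both calls held with other size factors, with the SRF-FOXO1 libraries added and without each library in turn. Rb1 rose by 0.45 against number 1 (SE 0.12, edgeR adjusted p = 0.0160) and by 0.43 against number 3 (SE 0.12, edgeR adjusted p = 0.0156), and both calls were lost without library 2 of SRF-ICA1L or of SRF-RELA, with edgeR adjusted p from 0.0503 to 0.0699. The first was also lost without library 1 of either and the second without SRF-RELA library 3. Ccnd1 fell in number 2 by 1.30 against number 3 (SE 0.27, edgeR adjusted p = 0.00418) and by 0.91 against number 1 (SE 0.27, edgeR adjusted p = 0.0250). With the 3 SRF-FOXO1 libraries added, neither difference of Ccnd1 was called (edgeR adjusted p = 0.0597 and 0.274), and the second was also lost without pMSCV library 1 or library 1 or 2 of SRF-ICA1L or SRF-RELA (0.0543 to 0.0839).

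Cdk6 fell in number 2 by 1.03 against number 3 (SE 0.19, edgeR adjusted p = 0.00223), a call that held in the same settings, and it was the lowest of its group in number 2 in 5 of 5 groups. It rose in number 3 by 0.63 against number 1 (SE 0.19, edgeR adjusted p = 0.0403), the only member called there, against 18.2% of genes. Cdk4 fell by 0.30 in number 2 against number 1 (SE 0.10, edgeR adjusted p = 0.0402) and was highest in number 1 in 5 of 5 groups. Called members were 4 of 9 for number 2 against 1 (35.7% of genes) and 4 of 9 for number 2 against 3 (42.2% of genes). The Cdk4 call was lost without any 1 of pMSCV libraries 1 and 2, SRF library 3 and the SRF-ICA1L and SRF-RELA libraries (edgeR adjusted p from 0.0524 to 0.139), and that of Cdk6 between numbers 3 and 1 without any 1 of SRF libraries 1 and 3 and the SRF-ICA1L and SRF-RELA libraries (0.0590 to 0.162).

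S phase and mitosis genes were lower in number 2 in the fit of 12 libraries, but not in every line. Their summed level in libraries 1, 2 and 3 was 4958, 2162 and 6514 CPM in pMSCV, 5343, 3847 and 6142 in SRF-ICA1L and 5883, 2973 and 6583 in SRF-RELA, where library 2 was the lowest. In SRF it was 5620, 5798 and 6577 CPM and in SRF-FOXO1 3718, 4719 and 4753 CPM, with library 2 above library 1 in both. By mean log2 CPM library 2 was the highest of SRF-FOXO1, while by the sum library 3 was. Against number 3, 20 of 24 were called lower and none higher, beside 42.2% of all genes called, with a median log2 difference of -0.92. Against number 1, 15 of 24 were called lower, beside 35.7% of all genes called, with a median of -0.66. All genes had medians of -0.0033 and -0.0036. Ccna2 fell by 1.20 on the log2 scale against number 3 (SE 0.23, edgeR adjusted p = 0.00297) and Mki67 by 0.96 (SE 0.23, edgeR adjusted p = 0.00757). Of the other G1 regulators 15 of 29 fell and 4 rose against number 3, beside the 42.2% of all genes called there in either direction. E2f2 fell by 1.15 (SE 0.11, edgeR adjusted p = 0.000126). Trp53, which encodes p53, fell by 0.77 (SE 0.14, edgeR adjusted p = 0.00199). Against number 1 Trp53 was at -0.33 and not called (edgeR adjusted p = 0.0824). Mdm2, a p53 target and its inhibitor, rose by 0.61 against number 3 (SE 0.10, edgeR adjusted p = 0.00154) and Rbl2 by 0.45 (SE 0.13, edgeR adjusted p = 0.0197). The other 2 of the 4 that rose were Ccndbp1, by 0.60 (edgeR adjusted p = 0.0105), and Tfdp2, by 0.49 (edgeR adjusted p = 0.00475). Trp53 and Mdm2 were picked for naming, and some regulators not otherwise named fell further, such as E2f8 by 1.25.

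Muscle differentiation genes had few calls by number. In number 2 against number 1, 1 of 23 was called, beside 35.7% of all genes. It was Chrng, the fetal acetylcholine receptor subunit, which rose by 1.75 (SE 0.54, edgeR adjusted p = 0.0299). In number 2 against number 3, 1 of 23 was called, beside 42.2% of all genes. It was Chrna1, another receptor subunit, which fell by 0.95 (SE 0.23, edgeR adjusted p = 0.00928). The medians of the 23 genes were 0.32 and -0.04. Number 3 against number 1 had 2 of 23 called, both higher, Myog and Chrna1, beside 18.2% of all genes. Myog rose by 1.44 (SE 0.40, edgeR adjusted p = 0.0318). SEs were often large: in number 2 against number 1, Mylpf was at 1.28 (SE 0.91) and not called, while Ccna2 had an SE of 0.23. Few calls therefore do not show equal levels.

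**Figure D4:**
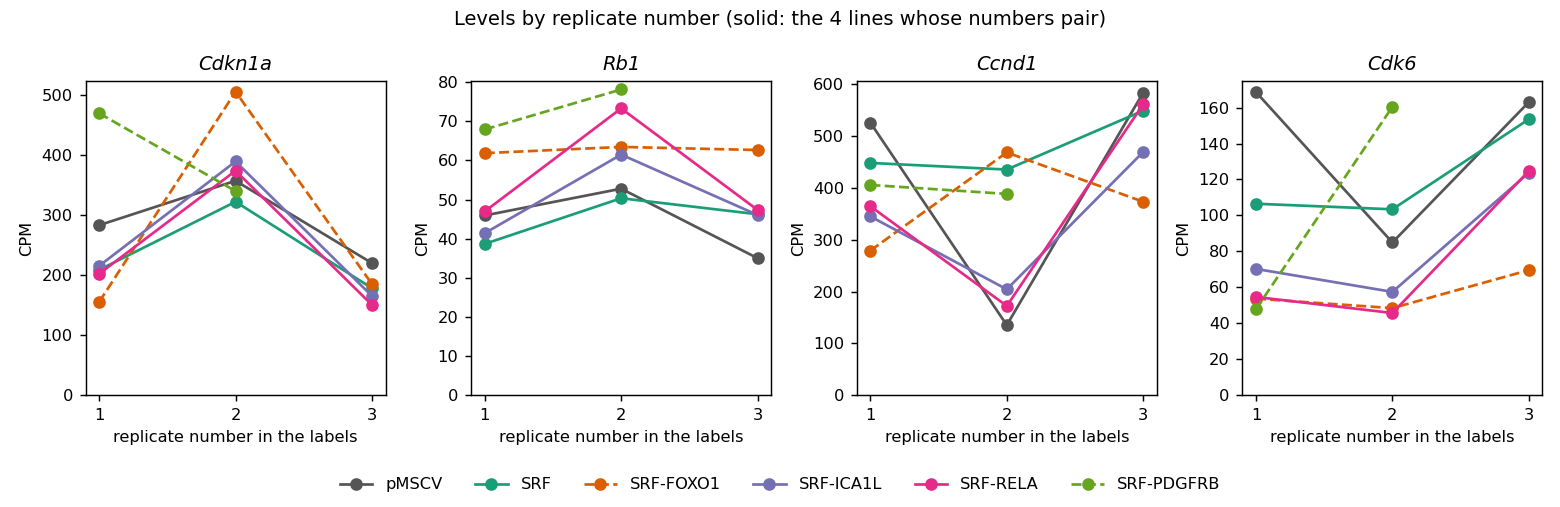
Level of Cdkn1a, Rb1, Ccnd1 and Cdk6 in CPM against the replicate number, with a line for each group, solid for the 12 libraries that entered the test and dashed for SRF-FOXO1 and SRF-PDGFRB. Cdkn1a peaks at number 2 in every group with 3 libraries, and Cdk6 has its lowest value there in 5 of 5.

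For each member apart from Rb1, the 3 genes with the most similar level over the 17 libraries were taken by Pearson's r of log2 CPM among 11063 genes, as a description of libraries that share group, number and depth. Nearest to Ccnd1 were Ttf2 (0.958), Tedc1 (0.944) and Pms2 (0.940). Ccnd2 was closest to Fbxo17 (0.904), Dot1l (0.885) and Fam149a (0.874). For Ccnd3 they were Sh3glb1 (0.901), Ttll1 (0.895) and Apol9b (0.884). No cyclin or kinase of the list was among the 3 nearest of another member. The kinase Cdk4 lay closest to Khsrp (0.935), Gapdh (0.927) and Mphosph6 (0.926), the second being the glycolytic enzyme gene. Cdk6 was most like Agk (0.965), 4933427D14Rik (0.961) and Tomm5 (0.960). The p21 gene Cdkn1a was most like Cep85l (0.917), Tiparp (0.902) and Psd (0.895). For Cdkn1b the nearest were Prr33 (0.906), Clec2d (0.902) and Magef1 (0.894). Cdkn2c had Camkk2 (0.900), Clcc1 (0.878) and Neurl1b (0.852).

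To relate the members to muscle differentiation and to proliferation, each was correlated with the mean log2 CPM of the muscle list and of the S phase and mitosis list over 17 libraries, with permutation p-values adjusted over the 9 members of each score. The second score was chosen once the data were known. Libraries share group and number, so they are not fully independent.

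Ccnd3 followed the muscle score, with Pearson's r = 0.728 (permutation p = 0.00074, adjusted p = 0.00666) and Spearman's rho = 0.569 (permutation adjusted p = 0.0870). Cdk6 had r = 0.653 (permutation p = 0.0041, adjusted p = 0.0185) and rho = 0.598 (permutation adjusted p = 0.0870). Without the 2 libraries farthest from the median score, both of SRF-PDGFRB, r was 0.553 for Ccnd3 and 0.533 for Cdk6, and neither passed after adjustment, so these calls depend on those libraries. With both measures centred within replicate number over all 17 libraries, r was 0.687 for Ccnd3 and 0.704 for Cdk6 (permutation adjusted p = 0.0105 for each). Within number 1 r was 0.662 for Ccnd3 and 0.888 for Cdk6, and within number 2 it was 0.752 and 0.642 (n = 6 each, no test). Among the members not called, Cdkn1b had 0.21 and 0.948 within numbers 1 and 2, and Ccnd2 0.394 and -0.871. Each of these numbers holds 1 SRF-PDGFRB library, so neither these values nor the centred ones are free of that group. Number 3 had 5 libraries, below the minimum of 6 set for a correlation. The inhibitors had no called relation: r was -0.087 for Cdkn1a, 0.406 for Cdkn1b and -0.135 for Cdkn2c, with adjusted permutation p from 0.324 to 0.754.

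Ccnd1 followed the S phase and mitosis score, with r = 0.890 (permutation p = 1e-05, the smallest these permutations can give, adjusted p = 9e-05) and rho = 0.784 (permutation adjusted p = 0.00351). Without pMSCV library 2 and SRF-RELA library 2, the farthest from the median, r was 0.722. It was 0.422 within number 1 and 0.932 within number 2 (n = 6 each, no test). Cdk6 had r = 0.572 and rho = 0.618 (permutation adjusted p = 0.0463 and 0.0297), 0.693 without those 2 libraries, and 0.431 and 0.396 within numbers 1 and 2. Rb1 had r = -0.589 and rho = -0.645 (permutation adjusted p = 0.0463 and 0.0280), -0.721 without those 2 libraries, and -0.902 and 0.078 within numbers 1 and 2, so its relation did not hold within number 2. Centred within replicate number, Ccnd1 had r = 0.836 (permutation adjusted p = 0.00045) and Cdk4 0.658 (permutation adjusted p = 0.0183), while Cdk6 at 0.482 (permutation adjusted p = 0.102) and Rb1 at -0.419 (permutation adjusted p = 0.141) did not pass. Uncentred, Cdk4 had r = 0.537 (permutation adjusted p = 0.0590). Cdkn1a had r = -0.497 and rho = -0.512 (permutation adjusted p = 0.0751 and 0.0679), and -0.227 and -0.048 within the numbers. As single libraries were left out, 1 to 5 of the 9 members passed for this score.

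**Figure D5:**
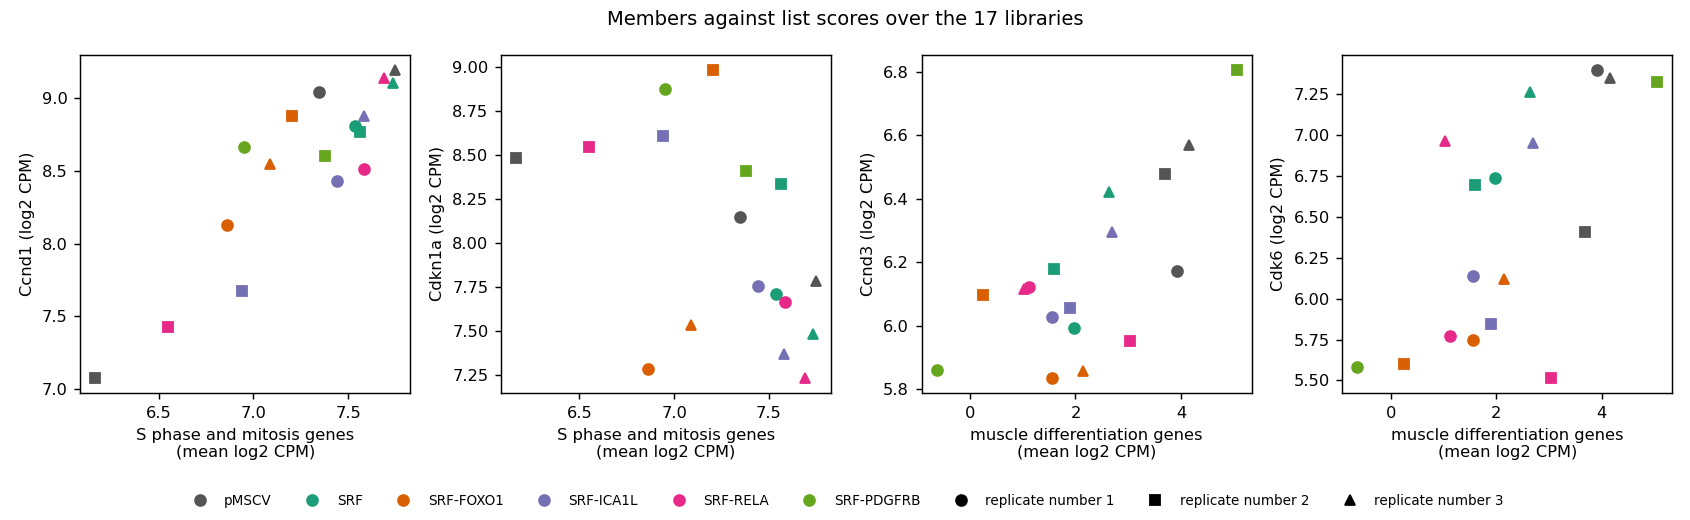
Levels of Ccnd1 and Cdkn1a against the S phase and mitosis score and of Ccnd3 and Cdk6 against the muscle differentiation score, all in log2 CPM, with 1 point a library coloured by group and shaped by replicate number. Ccnd1 follows the S phase score (r = 0.890) and Ccnd3 the muscle score (r = 0.728), where the 2 SRF-PDGFRB libraries lie at the ends.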

How the data were processed

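The authors deposited raw counts per gene for 17 libraries of C2C12 cells, as 1 table of 15062 genes. Per the submitters' processing notes, reads were checked with FastQC 0.11.8, trimmed with Trimmomatic 0.39, aligned with HISAT2 to GRCm38 and counted with featureCounts of Subread 2.0.0. The strand setting and the annotation are not given in the sources used here. In at least 3 libraries each gene of the table had 10 or more counts, so genes silent in most libraries are missing. Rows without a symbol (1531) held 0.555% to 1.13% of a library's counts and stayed in the tests.

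Counts were scaled by TMM and tested with edgeR 4.0.16 (quasi-likelihood test with robust dispersions, limma 3.58.1, R 4.3.3) with a term for group and Benjamini-Hochberg adjustment over all genes of a comparison, and the script was tested on simulated data. Levels are CPM, and log2 CPM used a prior count of 2. The SE is the log2 fold change divided by the square root of the F statistic. The biological coefficient of variation was 36.5%. All 16 pairs of libraries within groups differed beyond sampling noise, with a chi-square of 29 to 186 for each degree of freedom, so none was a duplicate. Groups and replicate numbers came from sample titles. Numbers were taken to pair libraries where every same-numbered pair of a pair of groups had a correlation of deviations over 0.1. That held among the SRF-RELA, SRF-ICA1L, SRF and pMSCV groups, and between SRF and SRF-FOXO1.

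The members and lists were chosen with earlier results of these data known. All members with a row are named, with a fold change printed where the unadjusted p was under 0.05 or a block called the gene. From the lists, 10 genes set by name and a part of those called are named. Trp53 and Mdm2 were picked outside that rule. Alternatives were RLE and upper-quartile factors, DESeq2 1.42.0, other low-count filters, only the 2 groups compared, a replicate block, and leaving out each library. Correlations used 100000 permutations. HISAT2's version is not given because the noted one could not be relied on. The genes most similar in level to Rb1 are not reported here.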

Additional observations from a re-analysis of the deposited data

How the results depend on the processing

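The count of members called stayed at 0 in the 9 line comparisons and the test among 6 groups under RLE or upper-quartile factors, DESeq2, no filter, a stricter filter and without each library in turn. It became 1, Cdk6, in 3 cases: SRF-RELA against pMSCV with the replicate block in 12 libraries (1 called, adjusted p = 0.0265), SRF-FOXO1 against SRF with only the 2 groups (1 called, adjusted p = 0.0460) and the same with the replicate block (1 called, adjusted p = 0.0394). Of all genes, 6.48% were called in the first case and 1.57% in the last, and the share without the block is not available. The replicate block changed no other member's call. In SRF-RELA the unblocked Cdk6 value ran from -1.47 without SRF-RELA replicate 3 to -0.63 without SRF-RELA replicate 2. Over all genes the tools differed more: SRF-FOXO1 against pMSCV had 107 calls with edgeR, 1363 with DESeq2 and 1021 with a replicate block over all 17 libraries, although numbers did not pair SRF-FOXO1 with pMSCV. In that last fit Rbl2 was called at 1.09 (adjusted p = 0.0322). The test among replicate numbers called 4 members, and in 15 libraries 29% of genes were called in place of 52%.

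Members correlated with the muscle score numbered 2 with Pearson's r, 0 with Spearman's rho and 0 without both SRF-PDGFRB libraries. Leaving out single libraries gave 0 (without SRF-PDGFRB replicate 2) to 2. For the S phase and mitosis score 3 became 1 to 5 (5 without pMSCV replicate 2). The median of the other G1 regulators in SRF-PDGFRB against SRF moved from -0.11 to 0.0037 with the block. That median changed sign, and no called value did. Differences between replicate numbers lost their call in 33 settings, with the libraries named beside them. Each member had at least 749 reads in every library.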
